A study of Mus musculus with 118 samples.

Results

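Rab genes encode small GTPases of vesicle traffic, together with a few regulators and effectors that carry the name of their Rab. They were taken as every row of the deposited counts table whose symbol begins with Rab followed by a digit, which gave 71 of 23998 symbols. Of these, 58 were GTPases, 9 were regulators or effectors named for a Rab, and 4 were transcripts from the opposite strand of a Rab or Rab11fip gene. The rule used no measured value.

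A Rab switches between a GDP-bound form, held soluble by GDP dissociation inhibitors, and a GTP-bound form on a membrane, where it recruits effectors that tether, move or fuse vesicles. Exchange factors turn it on, GTPase activating proteins turn it off, and a prenyl anchor added by a dedicated prenyltransferase holds it on the membrane. In neurons the Rab3 proteins sit on synaptic and dense-core vesicles and bind RIM and rabphilin before regulated release, while Rab1, Rab2 and Rab6 act at the ER and Golgi, Rab5 at early endosomes, Rab4 and Rab11 in recycling, and Rab7 in late endosomes.

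The data are Patch-seq libraries: the cytosol of 1 recorded neuron was drawn into the pipette and made into a Smart-seq2-type library without molecular identifiers or strand marks. Cells were labelled neurons of SOM-Cre/Ai9 mice, in which Cre from the somatostatin gene turns on tdTomato in somatostatin-positive (SOM+) interneurons. All 4 groups came from this cross, with no treatment and no wild-type control, and the labels give layer 4 (L4) or layer 5 (L5) of primary visual (V1) or somatosensory (S1) cortex but neither age nor animal. The study's methods describe its mice as adult. Because Cre marks any cell that has once used the somatostatin promoter, the tdTomato label alone does not show that a cell still makes somatostatin.

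Kept were cells with 1500 or more genes above 0, a read of Sst, and no more Slc17a7 than Gad1 and Gad2 together. In L4 these were 42 of 44 cells from V1 and 34 of 39 from S1, and in L5 they were 17 of 19 from V1 and 16 of 16 from S1. Total counts ranged from 97904 to 3295232 with a median of 1111833. Each of 8 markers of SOM+ interneurons had reads in every group, but reads of oligodendrocyte markers were also present, at pooled CPM (counts scaled by library total) of 267 for V1 and 1115 for S1 in L4, and of 239 for V1 and 731 for S1 in L5. Mag was at 0 in V1 L4 and Mog in V1 L5. The list of 5 microglia markers stood at 179, 138.6, 385 and 104.9 CPM in the same order, the 5 astrocyte markers at 99.2, 52.5, 6.95 and 64.3, the 5 excitatory neuron markers at 15.8, 7.50, 10.6 and 14.5, and 3 markers of other interneurons at 13.1, 44.5, 3.42 and 13.1. Excitatory Neurod6 and astrocyte Aqp4, Slc1a3 and Gfap were at 0 in V1 L5, Gfap and Vip in S1 L4.

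Since no label names an animal, all cells from the same area and layer count as 1 sample, and no comparison has a p-value. Differences are of mean log2(CPM + 1), a scale that can understate changes between low values. Where groups differ in the number of cells without a read, differences can also exceed those among cells with a read. The differences are therefore not fold changes of mean CPM. They are given with the SD over the dates in the sample titles that hold at least 2 cells of each group, numbered 1 to 9 in calendar order, since the labels do not say whether a date was an animal or a batch. A gene past the filter of 32 counts in at least 10 of the cells compared was called when its difference was at least 1 and had the same sign in every such date.

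The promoters of the Rab3 genes and of Rab15 are shown because these genes carry the results on dominant members and on cortical area. RefSeq promoters on GRCm38.p6, the assembly also called mm10, were listed for 47 of the 58 GTPases, and the first listed start site was used where a gene had several. For each gene the 100 bases nearest that start site and outside every GENCODE M21 exon are printed 5′ to 3′ on the gene's strand, with matches to the GC box GGGCGG in capitals on either strand. The windows are chr8:70754579-70754678 on the plus strand for Rab3a, chr4:108878963-108879062 on the plus strand for Rab3b, chr13:110280207-110280306 on the minus strand for Rab3c and chr12:76822554-76822653 on the minus strand for Rab15.
Rab3a: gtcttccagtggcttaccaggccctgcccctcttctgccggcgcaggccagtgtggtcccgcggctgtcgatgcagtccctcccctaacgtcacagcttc
Rab3b: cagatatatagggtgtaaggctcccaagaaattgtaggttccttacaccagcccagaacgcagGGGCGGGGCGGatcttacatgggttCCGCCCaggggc
Rab3c: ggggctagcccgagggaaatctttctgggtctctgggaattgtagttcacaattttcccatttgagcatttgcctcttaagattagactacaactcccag
Rab15: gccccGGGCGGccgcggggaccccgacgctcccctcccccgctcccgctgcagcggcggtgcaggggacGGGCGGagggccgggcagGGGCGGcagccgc
Capitals mark 3 GC boxes upstream of Rab3b, of which 2 overlap by 1 base, and 3 in the Rab15 window. The windows of Rab3c and Rab15 lie before the RefSeq starts used but within the genes as GENCODE draws them. In these windows neither the TATA box letters TATAAA nor the CCAAT box (CCAAT) had a match on either strand, and GGGCGG had none in those of Rab3a and Rab3c. The GC content of the 4 windows was 66%, 57%, 46% and 87%, in the order printed.

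Over the full 300 bases around the start site (250 before and 50 after), Rab GTPase promoters were rich in CpG. The ratio of observed to expected CpG had a median of 0.749 in the 47 GTPases and 0.389 in 27025 genes. GGGCGG was present in 70.2% of the GTPase promoters and 35.9% of all promoters, the CCAAT box in 48.9% and 37.9%, and TATAAA in 8.51% and 14.2%. Unlike in the shorter windows printed above, GGGCGG was present here for Rab3a and Rab3c as well as for Rab3b and Rab15. The CCAAT box was present for Rab3a and Rab3c, and TATAAA for Rab3b. Among the GTPases the CpG ratio also went with detection: its median was 0.849 for the 24 read in at least 50% of the cells, 0.754 for the 13 read in 10 to 50% and 0.526 for the 10 read in fewer. The ranges overlapped: Rab3b had reads in 96.3% of the cells and Rab9 in 64.2% at CpG ratios of 0.40 and 0.43, and Rab13 had reads in 1.8% at 1.04. Rab15 had a ratio of 0.882 and reads in 66.1% of the cells. Other promoter measures did not fall in the order of detection. From the most to the least widely read class, GGGCGG was present in 70.8%, 92.3% and 40% of the promoters. Median GC content was 61.8%, 63.3% and 57%. All genes were not split by detection, so these classes have no background.

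**Figure D1:**
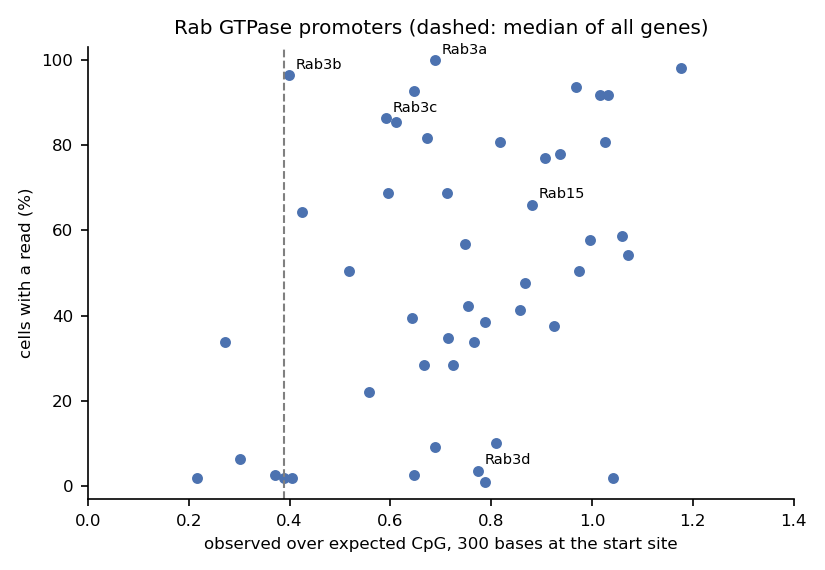
Observed over expected CpG in the 300 bases at the start site (x axis, a ratio) against the share of kept cells with a read (y axis, percent), 1 point for each of 47 Rab GTPases; the dashed line is the median of 27025 genes, 0.389. Points with reads in 50% or more of the cells have a median ratio of 0.849, and Rab3b lies near the dashed line despite its reads in 96.3% of the cells.

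Many Rab genes were read in most SOM+ cells. Of the 71 rows, 38 (53.5%) had a read in at least 50% of the cells, as had 31 of the 58 GTPases (53.4%), against 6175 of 23998 symbols (25.7%) in the whole table. A cell had reads of 28.1 ± 7.84 of the GTPases (SD over all kept cells, range 12 to 44), and of 27.04 ± 7.31 once each library was thinned to 250000 reads, which left out 3 cells. At least 90% of the cells had reads of 7 GTPases: Rab3a and Rab3b on secretory vesicles, Rab6a and Rab6b at the Golgi, Rab14 between Golgi and endosomes, Rab7 on late endosomes and Rab10 in exocytic traffic. At the other end, 14 GTPases were read in 10 to 50% of the cells, 12 in fewer, and Rab38, a GTPase of melanosome formation, in no kept cell, which allows a share of up to 2.75%. The opposite-strand transcript Rab11fip4os1 also had no read.

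The roles differed in how many of their members were present. At least 50% of the cells had reads of 10 of 16 ER and Golgi GTPases, 7 of 9 recycling, 4 of 8 secretory, 4 of 7 exocytic, ciliary and polarized, 3 of 8 early endosome and 2 of 6 late endosome and lysosome GTPases. Rab40c was the 1 of 4 other GTPases to reach this share, with 50.5% of the cells. Rab17 (1.8% of the cells) and Rab25 (2.8%), recycling GTPases best known from epithelia, were the 2 recycling members below it. Rab32 and Rab29 in the lysosome group were read in 1.8% and 0.9% of the cells, and Rab37 in the secretory group in 0.9%. Among the genes named for a Rab, 6 of 9 regulators and effectors reached the share, led by Rab3gap2 (83.5%) and Rab3gap1 (72.5%), which encode the noncatalytic and the catalytic subunit of the Rab3 GTPase activating complex, and by Rab11fip3 (70.6%).

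Levels can be compared between genes per length only, so the deposited RPKM values are used for this, as mean log2(RPKM + 1) with the SD over all kept cells. The highest was Rab3a at 8.76 ± 0.95, followed by Rab3b at 7.83 ± 1.91 and the Golgi GTPase Rab6a at 7.45 ± 1.79. Then came Rab7 at 6.34 ± 2.30, Rab14 at 5.94 ± 2.08 and Rab1, which acts from ER to Golgi, at 5.86 ± 2.62. Rab2a (5.63 ± 2.68) on the same route, Rab6b (5.40 ± 2.25), the recycling GTPase Rab11a (5.20 ± 2.95) and Rab10 (5.08 ± 2.17) closed the first 10. Each pair of neighbours in this order lay closer together than the SD of either gene, so their means do not set the order of neighbours beyond the spread over cells. Rab3a had the smallest SD of these 10, with a read in every cell, while Rab11a was read in 81.7% of the cells.

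**Figure D2:**
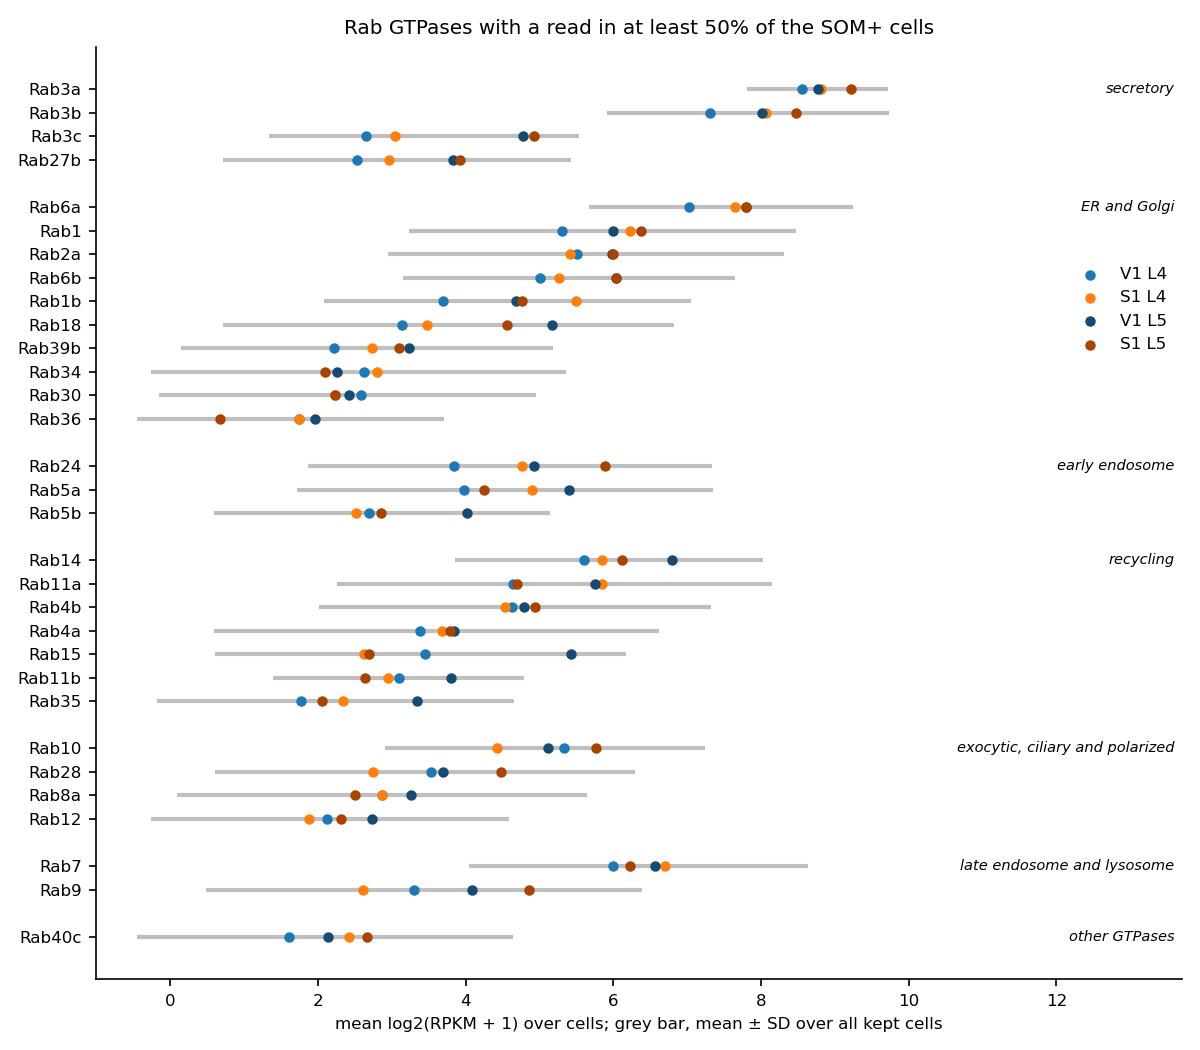
Mean log2(RPKM + 1) over cells (x axis) of the 31 Rab GTPases read in at least 50% of the kept SOM+ cells, sorted by role; points are the means of the 4 groups and grey bars the mean ± SD over all cells. Rab3a at 8.76 and Rab3b at 7.83 lead, and the 4 group means lie within the SD for most genes. Over all dates Rab15 stands higher in V1 L5 (5.42) than in its other groups, but its gap to V1 L4 was not present within dates.

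Reads cannot always be assigned to 1 gene. The library does not mark strand and exons of 15 members overlap those of another listed gene, so reads of Rab10 and Rab10os, Rab3a and Mpv17l2, Rab3b and 8030443G20Rik, Rab6a and Mrpl48, Rab3gap2 and Iars2, or Rab5a and Pp2d1 cannot be fully told apart. Close paralogs such as Rab1 and Rab1b, Rab6a and Rab6b, or the Rab3 genes may also share reads, and how these were counted is not given in the sources used here.

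The Rab3 GTPases, the Rab proteins of synaptic vesicles, differed from one another in these cells. Rab3a lies at chr8:70754679-70758677 (plus strand, mm10), Rab3b at chr4:108879063-108943324 (plus), Rab3c at chr13:110054187-110280996 (minus) and Rab3d at chr9:21907491-21918192 (minus). In RPKM, the deposited value per length, Rab3a had medians of 417 and 512 in the L4 cells of V1 and S1, and of 533 and 625 in the L5 cells. Rab3b had medians of 268, 350, 423 and 404 in the same order, and Rab3c of 9.01, 15.03, 25.4 and 43.5. Rab3a and Rab3b were thus of the same order in every group, and Rab3c stood far below both. Rab3d, best known from exocrine secretion, had reads in 4 cells, 2 in V1 L4 and 2 in S1 L5, and a mean log2(RPKM + 1) of 0.10.

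Within a cell, Rab3a was the highest of the 4 Rab3 genes per length in 84 of the kept cells (77.1%, 95% Clopper-Pearson interval 68.0 to 84.6, counting error only) and Rab3b in the other 25. The count for Rab3a was 33 of 42 cells of V1 and 28 of 34 of S1 in L4, 12 of 17 and 11 of 16 in L5, and the 4 intervals overlap. This order rests on the length correction: by CPM, with no length correction, Rab3a was highest in 34.9% of the cells. The difference Rab3b minus Rab3a in log2(RPKM + 1) had a median of -0.63 over all cells, with medians from -0.74 in S1 L5 to -0.49 in S1 L4. Among all 58 GTPases, Rab3a was the highest per length in 72 cells, Rab3b in 20 and Rab6a in 8, and 9 further GTPases in 1 cell each. The Rab3 genes made up a median of 33.1% of the summed RPKM of the GTPases in a cell, with a range of 6.82 to 49.3% and group medians of 31.1% (V1) and 34.97% (S1) in L4, and 32.2% (V1) and 36.98% (S1) in L5.

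Rab3b was read in all cells but 4, of which 3 were V1 L4 and 1 was V1 L5. These cells were not empty of Rab3: they had 35, 59, 185 and 313 counts of Rab3a. With totals of 149024 to 1031770 counts, a count of 0 allows Rab3b levels of up to 20.1 CPM in the shallowest and 2.91 CPM in the deepest, against a median of 999 CPM over all cells. These limits cover counting error only, not transcripts lost before sequencing. In the same order the cells had 2951, 3451, 4851 and 4800 genes read, below the medians of 5959.5 in V1 L4 and 6765 in V1 L5. Their counts of Rab3c, again in this order, were 3, 1, 2 and 1.

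**Figure D3:**
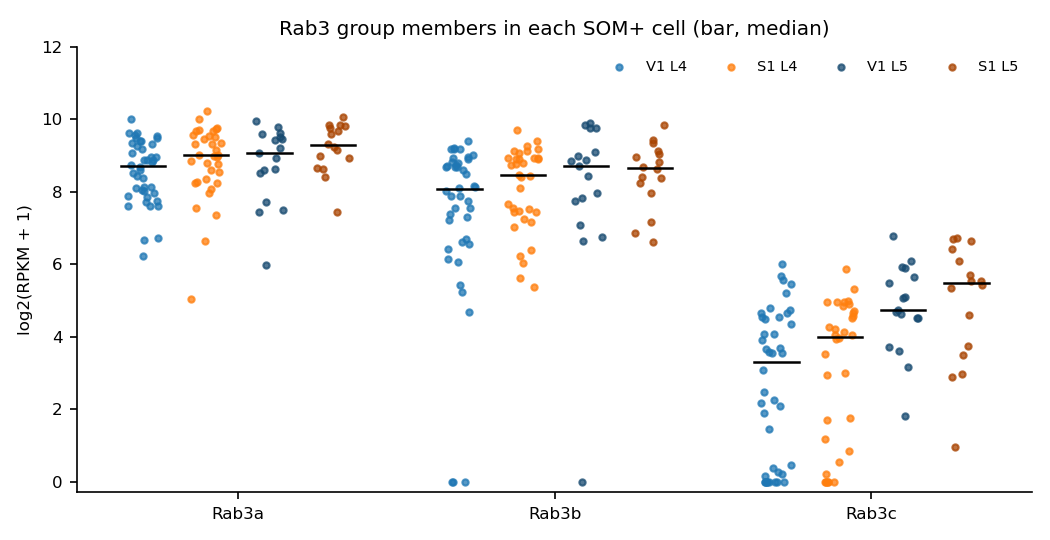
log2(RPKM + 1) of Rab3a, Rab3b and Rab3c (y axis) in each kept SOM+ cell, by group, with bars at the medians. Rab3a has a read in every cell, 4 cells are at 0 for Rab3b, and Rab3c is lower than both, with its cells at 0 all in L4.

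Summed over all 71 Rab rows, an L4 cell held 6120 ± 2484 CPM in V1 and 6914 ± 2332 CPM in S1, and an L5 cell 8531 ± 2704 and 8022 ± 2977 CPM (SD over cells). The L5 means lay above the L4 means by less than 1 SD. Detected genes per cell had medians of 5959.5 and 6648.5 in the L4 cells of V1 and S1, and of 6765 and 7571.5 in the L5 cells. Over all dates both were higher in L5 than in L4, but within L5 the sum was higher in V1 and the gene number in S1. On the dates that hold both layers, median gene numbers in V1 were 6765 in L5 and 7533 in L4, the other way round. In S1 they were 7571.5 in L5 and 6111 in L4. The part of gene number in the sums was not tested.

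The first comparison sets S1 beside V1 in L4. The study mapped most of its L4 cells to the transcriptomic types Sst Calb2 Pdlim or Sst Hpse Cbln4. Of these, S1 cells were nearly all of the Hpse type, while V1 cells were more often of the Calb2 type. Area and cell type therefore cannot be told apart in this comparison. Here 50 of the 71 members passed the filter, and 1 was called higher in S1, where 1.30% of 9201 genes were, and 0 lower, where 1.89% were. The median difference of the 50 was 0.17, beside 0.01 over all genes tested. The call was Rab1b, a GTPase of ER to Golgi traffic at chr19:5099205-5107072 on the minus strand.

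Rab1b had a lowest, median and highest value of 0, 53.2 and 326 CPM in V1 L4 and of 0, 107.8 and 393 CPM in S1 L4. The ranges overlap, and what set the groups apart was the number of cells without a read: 29 of 42 V1 cells had one against 32 of 34 S1 cells (69.0 and 94.1%, also when thinned to 250000 reads a cell). Among cells with a read, the means of log2(CPM + 1) were 6.16 and 6.66. The difference of means was 2.01, it was positive in 5 of 5 dates with values from 2.07 to 3.44 (SD over dates 0.64), and it stayed between 1.91 and 2.2 when any 1 cell was left out. Oligodendrocyte markers were higher in the S1 cells, with medians of 644 and 156 CPM, and without the 16 L4 cells at 1000 CPM or more of that list the difference was 1.96, a setting added after the data were seen.

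The other large differences in L4 had mixed signs between dates. Rab3ip, which encodes Rabin8, an exchange factor for Rab8, differed by 1.60 and was higher in 4 of 5 dates, but its mean difference within dates was 0.26 ± 2.55. Rab11a differed by 1.35 (SD over dates 1.19, 4 of 5 dates). On the other side, Rab10 differed by -1.11 (1.65, 4 of 5), Rab15 by -0.98 (3.31, 3 of 5) and the endosomal Rab21 by -0.94 (0.88, 4 of 5). None of these 5 met the rule on signs. By role, 5 of 5 secretory members tested were higher in S1 (0.21 to 0.86, median 0.60) and 6 of 6 exocytic, ciliary and polarized members lower (-1.11 to -0.02, median -0.45), with no call in either group. Of all genes tested, 4673 of 9201 were higher in S1. Some members of both groups changed sign between dates, such as Rab3c (2.59 on date 2, -0.64 on date 8) and Rab12 (-2.87 on date 3, 2.36 on date 8).

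The second comparison is that of S1 with V1 in L5. Of the 71 members 37 passed the filter. None was called higher in S1, where 8.54% of 6402 genes were, and 3 were called lower (Rab15, Rab35 and Rab3ip), which is 3 of 37 where 4.15% of all genes were. The median difference of the members was -0.02, beside 0.24 over all genes tested, and it was -0.20 to 0.17 under the other settings. Without the oligodendrocyte-rich cells (1000 CPM or more of that list), a setting added after the data were seen, Rab15 was the 1 member called lower and 3 were called higher: Rab1 (1.46), Rab24 (1.70) and Rab3gap2 (2.93). The share of all genes called in that setting was not counted.

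Rab15, a brain-enriched GTPase of early and recycling endosomes, lies at chr12:76797960-76822908 on the minus strand. In V1 L5 it had a lowest, median and highest value of 0, 186 and 1068 CPM, and in S1 L5 of 0, 16.7 and 323 CPM. All but 1 of the 17 V1 cells had a read and 9 of 16 S1 cells (100 and 53.3% of the cells when thinned, with 15 cells in each group). More than 100 CPM was reached in 14 of 17 V1 cells and 6 of 16 S1 cells, and 1 S1 cell lay at or above the V1 median. The groups therefore overlapped, through S1 cells with reads and V1 cells with few or none.

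The difference in mean log2(CPM + 1) of Rab15 was -3.34, with means of 3.56 in S1 and 6.90 in V1. Within dates it was -4.14 on date 3, -5.03 on date 4, -0.40 on date 5 and -4.06 on date 6, a mean of -3.41 with an SD of 2.05. The sign was the same on 4 of 4 dates, but on date 5 both areas held cells with and without reads and the difference was small. Leaving out any 1 cell gave -3.77 to -3.10. Part of the difference lay in cells without a read, and among cells with one the means were 7.33 in V1 and 6.33 in S1. Oligodendrocyte markers had medians of 322 CPM in S1 and 170.6 CPM in V1, and without the 6 L5 cells at 1000 CPM or more the difference was -2.49. When the Sst and Slc17a7 criteria were dropped, the difference was -3.13 but no longer called, since date 5 then had a difference of 0.088 and 3 of 4 dates were negative.

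**Figure D4:**
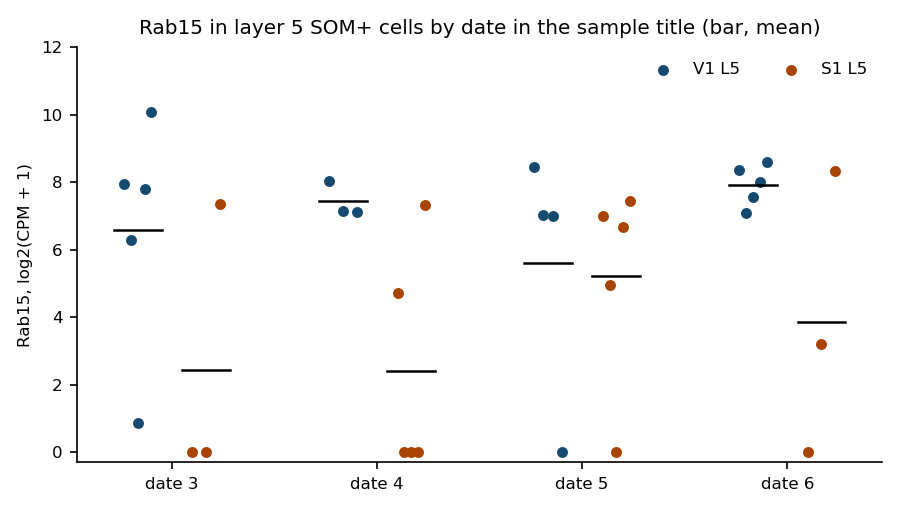
Rab15 in log2(CPM + 1) (y axis) in each L5 SOM+ cell, V1 beside S1, by the date in the sample title, with bars at the means. The V1 mean lies well above the S1 mean on dates 3, 4 and 6, with 1 S1 cell among the V1 cells on each, and on date 5 the means differ by 0.40.

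Over all dates Rab15 was lower in the other groups than in V1 L5. Its median was 74.7 CPM in V1 L4 (0 to 684) with reads in 28 of 42 cells, and 12.3 CPM in S1 L4 (0 to 601) with reads in 19 of 34. In order of mean log2(CPM + 1) the groups were V1 L5 (6.90 ± 2.58), V1 L4 (4.46 ± 3.55), S1 L5 (3.56 ± 3.46) and S1 L4 (3.48 ± 3.37, SD over cells), and every pair of neighbours lay closer than the SD of at least 1 of them. The L4 area difference of -0.98 was mixed, from 3.17 on date 2 to -5.33 on date 3. It was positive on dates 2 and 7 and negative on dates 3, 5 and 8. On dates 3, 4, 5 and 6, which hold the L5 cells, the V1 L4 means were 7.45, 6.45, 5.45 and 8.59. The S1 L4 means on these dates were 2.12, 5.64, 3.06 and 0. V1 had 1 L4 cell on each of dates 4 and 6, and S1 had 1 on date 6. On the dates with both layers in V1 (7 L4 cells), the L5 cells exceeded the L4 cells by 0.29, with 1 of 2 dates positive, so the gap between L5 and L4 in V1 was not present within dates.

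The other members called in L5 moved less. Rab35, a GTPase of the recycling endosome, had medians of 1.44 CPM in S1 and 29.6 CPM in V1 and reads in 9 of 16 and 12 of 17 cells. Its difference of -1.54 had an SD over dates of 1.62 and was lost without date 6. Rab3ip, with medians of 0 and 30.9 CPM, differed by -1.22 (SD 1.37) and was lost without date 5 or date 6. Both were also lost with a pseudocount of 10 and after thinning, Rab3ip also with RPKM, and neither was called without the oligodendrocyte-rich cells.

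Without being called, Rab11b differed by -1.80 (3 of 4 dates). With Rab15 and Rab35, 4 of 7 recycling members tested were lower in S1 by at least 1, as were 642 of 6402 genes. Rab15 was chosen with its L5 pattern known, so this count and the median of the recycling members are no separate support for a shift of that group. Recycling members had a median difference of -1.27, with 1 of 7 above 0, and the 4 secretory members tested were 0.01 to 0.48 higher in S1, around the 0.24 of all genes. Toward S1, Rab3gap2 differed by 2.81, from a median of 52.9 CPM in V1 to 225 CPM in S1, but the sign was the same on only 3 of 4 dates (SD 2.50). Rab24, a GTPase linked to autophagy, differed by 0.97 (SD 2.37) and Rab28, of cilia, by 0.85 (SD 0.90), both with 3 of 4 dates positive.

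The layers were compared within an area over the dates that hold both, and these comparisons share cells with the area comparisons. In the study, L5 cells mapped mostly to other transcriptomic types than L4 cells, so layer and cell type cannot be told apart either. In V1 they rest on 17 L5 cells against 7 L4 cells and on 2 dates with enough cells. Of 30 members tested, 3 were called higher in L5, where 8.87% of 4778 genes were, and 1 lower, where 17.9% were. The median of the members was 0.29, beside -0.19 over all genes. The L5 cells had fewer genes read, with medians of 6765 and 7533. Microglia markers had medians of 10.9 CPM in these L5 cells and 165.5 CPM in the L4 cells, and their part in the differences was not tested.

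The V1 calls were Rab5a (2.01) on early endosomes, Rab18 (1.58) on the ER and lipid droplets, Rab4b (1.11) in recycling, and Rab28 in the other direction (-1.01). Rab5a had a lowest, median and highest value of 0, 187 and 477 CPM in L5 and 0, 58.0 and 309 CPM in L4. The groups overlap widely, and without date 3 the Rab5a difference was -0.04. Rab18 was lost without date 6, Rab4b without date 4 or 5 and Rab28 without date 3, 4 or 5, so none of the V1 calls held without each date in turn. Without a call, Rab11a differed by 1.88 (1 of 2 dates), Rab3gap2 by -0.99 (1 of 2) and Rab3gap1 by -0.57 (2 of 2).

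In S1, 16 L5 cells stood against 12 L4 cells on 3 dates. Of 31 members 5 were called higher in L5, where 10.7% of 5895 genes were, and 0 lower, where 6.16% were. The median was 0.33, beside 0.21 over all genes. The L5 cells also had more genes read, with medians of 7571.5 and 6111, and fewer oligodendrocyte reads, with medians of 322 and 692 CPM.

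Rab3c, the least abundant of the 3 Rab3 genes read in most cells, was among them. It had a lowest, median and highest value of 7.26, 361 and 874 CPM in S1 L5 and 0, 135.8 and 325 CPM in the S1 L4 cells of the same dates. The difference was 2.32, positive on 3 of 3 dates (2.0, 3.70 and 0.09 on dates 3, 4 and 5, SD 1.81), and all 16 L5 cells had a read against 10 of 12 L4 cells. In V1 its median was 221 CPM in L5 and 201 CPM in L4, the difference was 1.26 and 1 of 2 dates was positive. Over all kept cells Rab3c was read in 33 of 42 (V1) and 28 of 34 (S1) L4 cells and in all L5 cells. The difference between the areas in this layer contrast was not tested. By contrast Rab3a differed between layers by 0.02 in S1 and -0.45 in V1, and Rab3b by 0.11 and -0.49, on the same log2(CPM + 1) scale. The V1 value of Rab3b includes 1 L5 cell without a read.

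Rab3gap2, the noncatalytic subunit of the Rab3 GTPase activating complex, differed by 2.49 (SD over dates 0.87, 3 of 3 dates), from a median of 88.1 CPM in L4 to 225 CPM in L5. Rab9, which acts between late endosomes and the Golgi, differed by 2.86 (SD 2.2), with medians of 2.24 and 64.2 CPM and reads in 6 of 12 and 13 of 16 cells. Rab18 (1.08) and Rab5b of early endosomes (1.07) lay just past the limit. Rab3c and Rab3gap2 were called under all 8 other settings and without each date, where only dates 3 to 6 hold L5 cells and could change the result. Rab9 held without each date but in 4 of 8 settings, and Rab18 and Rab5b were lost under 4 and 5 of them. The lowest differences were those of Rab11a (-1.52, 2 of 3 dates), Rab1b (-0.67) and Rab3ip (-0.64), none of them called.

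**Figure D5:**
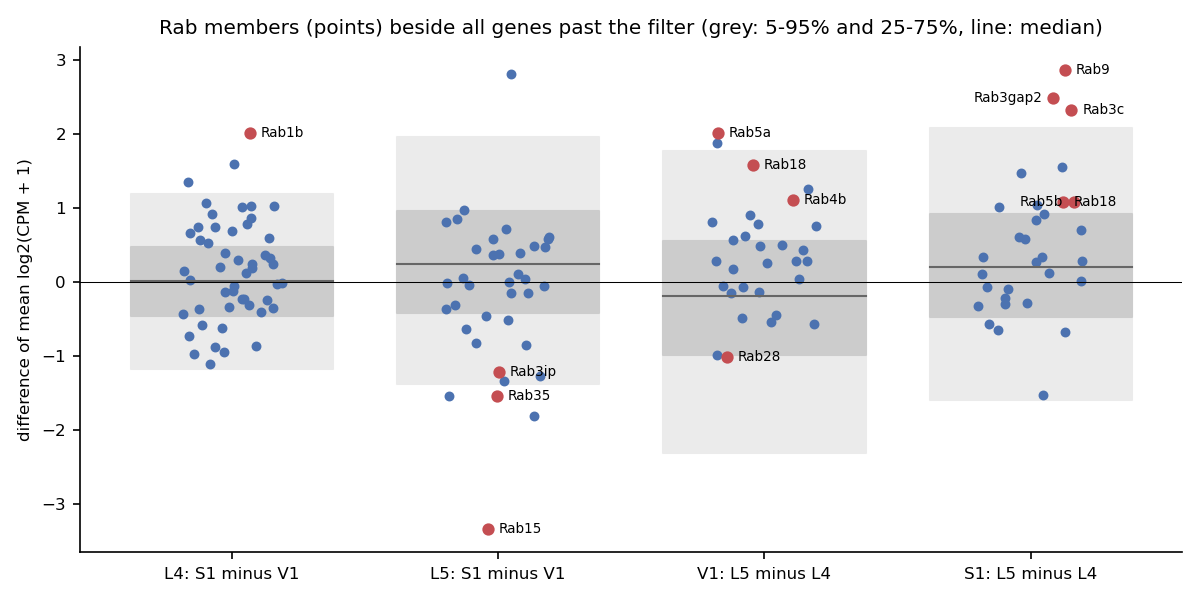
Difference of mean log2(CPM + 1) (y axis) of the Rab members past the filter in the 4 comparisons, with called members in red and named; grey bands hold 90% and 50% of all genes tested and the grey line is their median. Most members lie within the outer band, Rab15 lies at -3.34 in L5, and the members' median there is -0.02 beside 0.24 for all genes.

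Other genes of the Rab cycle and its effectors, 55 listed, were described by the same rule. In L4, 0 of the 48 tested were called. In L5, of 35 tested 3 were called higher in S1, where 8.54% of all genes were, and 0 lower, where 4.15% were, so the share higher was that of all genes. The 3 were the GTPase activating protein Evi5 (2.36), the prenyltransferase subunit Rabggta (2.02) and the golgin Golga5 (1.62), each on 4 of 4 dates. Between layers, 3 of 22 were higher and 3 lower in L5 of V1, where 8.87% and 17.9% of all genes were, and 4 of 31 higher and 3 lower in L5 of S1, where 10.7% and 6.16% were. These counts lie near the shares of all genes. Rabggta was again among those higher in S1 L5 (2.31), with Sytl2 (2.83), an effector of Rab27, and Rims2 (-1.38), an active zone effector of Rab3, in the other direction. Eea1, the endosomal tether that binds Rab5, differed by -2.12 in V1 and -1.78 in S1.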

How the data were processed

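Patch-seq libraries of 118 cells were analysed from the deposited tables. Per the labels and the study's methods, the authors demultiplexed with bcl2fastq 2.20 and aligned reads with STAR 2.4.2a to mm10, and deposited gene counts and RPKM values calculated with RefSeq gene models. How multi-mapping or overlapping reads were counted is not given in the sources used here. Rows sharing a symbol were summed (24490 rows, 23998 symbols, no Rab row affected).

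Counts were scaled to CPM by the total of each cell and used as log2(CPM + 1), with a pseudocount of 1. RPKM was used only for levels between genes. The study's methods name 6 mice for these recordings, fewer than the 9 dates in the titles, and the labels tie no cell to a mouse, so no test was run. Comparisons were made with Python 3.11.15, NumPy 2.4.6, pandas 2.3.3 and SciPy 1.17.1 and tested on simulated data with known differences. The simulated cells had no differences between dates and no added cells without a read, so they do not bear on those features. Intervals are exact at 95% and, since amplified reads here carry no molecular identifiers, cover counting error only. TMM factors (edgeR 4.0.16 in R 4.3.3) were an alternative, as were pseudocounts of 0.1 and 10, RPKM, thinning, no filter, looser cell criteria and leaving out each date.

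The genes and lists were chosen with earlier results of these data known. Genes named are the Rab3 genes and Rab15, the 10 highest members, those called or among the 3 largest differences each way in a comparison, and members without a read; further members are given as examples of role groups, chosen after their values were seen. The deposited cell annotation repeats the labels and was not used.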

Additional observations from a re-analysis of the deposited data

Results flagged for a closer look

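Rab6a and Rab3b had differences of opposite sign in a pair of contrasts, on every date with enough cells. The area difference of Rab6a, S1 minus V1 in mean log2(CPM + 1), was 0.69 in L4 and positive on 5 of 5 dates, and -0.058 in L5 and negative on 4 of 4 dates. The layer difference of Rab3b, L5 minus L4, was -0.49 in V1 and negative on 2 of 2 dates, and 0.11 in S1 and positive on 3 of 3 dates. On date 3 the V1 means of Rab3b were close, 9.73 in L5 and 9.76 in L4. On date 5, 1 of the 4 V1 L5 cells had no Rab3b read, at a total of 149024 counts. The means there were 8.10 in V1 L5 and 9.87 in V1 L4. The medians went the other way, 1457 CPM in L5 and 1210 CPM in L4, so the sign on that date rested on this cell. The negative sign in V1 thus rested on a small gap on date 3 and on 1 cell on date 5. Neither difference between contrasts was tested, and the smaller member of each pair is far below the SD of the gene over cells.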

How the results depend on the processing

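No paired analysis was possible because no result comes from a test and the labels name no animal. Dates are shared between groups, and the mean of the differences within dates was -3.41 for Rab15 in L5. Leaving out each date in turn gave 1 to 4 Rab members called in L4, 3 to 7 in L5, 2 to 9 between the V1 layers and 5 to 9 between the S1 layers. A pseudocount of 0.1 gave 3 called in L4, and one of 10 gave 2 between the V1 layers and 3 between the S1 layers. Thinning gave 2 in L4 and 3 between the S1 layers, and RPKM gave 3 between the S1 layers. With no gene filter 5 were called in L5, 10 between the V1 layers and 10 between the S1 layers. Without the rule on signs 8 members differed by at least 1 in L4, 8 in L5 and 10 between the S1 layers. Without cells rich in oligodendrocyte markers, a setting chosen after seeing the data that left out 13 of 34 S1 L4 cells, 6 were called in L4: Rab1b, Rab10, Rab11a, Rab11fip5, Rab18 and Rab5a. Shares of all genes called were counted under the main setting only. The counts of calls under other settings therefore have no background, and a rise in them may hold for all genes. Rab3a was highest of the Rab3 group in 34.9% of the cells by CPM. In all, 23 alternative values moved past the limits set for them and the rest did not. Every value of Rab15 in L5 was among the rest (-4.48 to -2.70 without a date and -2.15 at the lowest size, with a pseudocount of 10), though its call was lost with looser cell criteria. The limit for Rab15 was wide, its SD over dates of 2.05. L5 cells were on dates 3 to 6 only, so leaving out another date could not change an L5 or layer result. The median Rab difference in L5 was 0.17 without date 6. The cause of these changes was not tested. Each comparison rests on 1 sample a group, and genes without 32 counts in at least 10 of the cells compared were left out.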
